A study of Rattus norvegicus with 18 samples.

Results

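Gal, Nts, Tac1, Tac3, Cck, Grp and Nmu encode the precursors of galanin, neurotensin, substance P and neurokinin A, neurokinin B, cholecystokinin, gastrin-releasing peptide and neuromedin U, and Galr1 encodes a galanin receptor. These 8 genes were taken by name, by matching the transcript accession of each array probe to rat gene symbols, out of 16665 genes named on the array. Each matched exactly 1 probe. Their RNA was measured in hypothalamus dissected by a single operator from male Wistar rats that were 9 weeks old at sampling, with 1 single-colour array per rat. The 6 control rats were neither restrained nor given a wheel. The 6 stress rats were restrained for 1 to 1.5 h a day, 5 days a week, for 3 weeks. The 6 rats with stress and exercise were restrained in the same way and also had a running wheel for 4 weeks, of which the first week came before any restraint. These are also called exercised rats, and no group had a wheel without restraint. All rats fed freely and were decapitated under ether, and the study, by its title, concerns exercise and hypertension caused by chronic stress.

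Neuropeptides are cut from larger precursors, stored in dense core vesicles and released to act on G protein-coupled receptors. In the hypothalamus galanin, neurotensin and the tachykinins are made by sets of neurons that act on feeding, body temperature, reproduction and the stress axis, and neurokinin B is made with kisspeptin and dynorphin in arcuate neurons that pace the release of gonadotropin-releasing hormone. Cholecystokinin is a satiety peptide of the gut that the brain also makes, in rodents most abundantly in cortex and thalamus. Neuromedin U reduces feeding when given into the brain of rats, and in rats its RNA is found in the pars tuberalis, the pituitary tissue wrapped around the stalk, as well as in the hypothalamus.

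Gal, Nts and Tac1 rose and fell together from rat to rat, as described further on, and Nmu was among the most variable genes of the data, so the 250 bases before the start of these 4 genes are shown (RefSeq, rat build GRCr8, 5′ to 3′ on the gene's strand). Capitals mark the letters TGACG (the half-site of the cyclic AMP response element), TGAGTCA (the AP-1 site) or CACGTG (an E-box) on either strand, so that CGTCA is TGACG read on the other strand; no 2 of these matches overlapped. The windows lie at chr1:210084573-210084822 on the minus strand for Gal, chr7:39460889-39461138 on the minus strand for Nts, chr4:36645333-36645582 on the plus strand for Tac1 and chr14:32198693-32198942 on the plus strand for Nmu.
Gal: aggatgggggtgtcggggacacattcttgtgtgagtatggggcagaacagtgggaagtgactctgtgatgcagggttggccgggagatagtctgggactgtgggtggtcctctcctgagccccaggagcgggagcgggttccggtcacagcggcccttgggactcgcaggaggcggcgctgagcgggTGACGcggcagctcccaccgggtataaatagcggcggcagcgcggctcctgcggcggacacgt
Nts: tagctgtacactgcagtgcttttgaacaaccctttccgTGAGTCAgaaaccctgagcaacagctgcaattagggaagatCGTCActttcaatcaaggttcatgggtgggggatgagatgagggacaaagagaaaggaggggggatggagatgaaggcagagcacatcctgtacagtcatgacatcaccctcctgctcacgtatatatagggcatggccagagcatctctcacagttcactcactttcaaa
Tac1: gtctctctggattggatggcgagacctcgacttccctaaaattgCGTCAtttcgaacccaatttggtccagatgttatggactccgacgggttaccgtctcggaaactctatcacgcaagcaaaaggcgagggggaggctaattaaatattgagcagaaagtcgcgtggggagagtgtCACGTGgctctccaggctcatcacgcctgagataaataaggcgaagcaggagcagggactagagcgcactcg
Nmu: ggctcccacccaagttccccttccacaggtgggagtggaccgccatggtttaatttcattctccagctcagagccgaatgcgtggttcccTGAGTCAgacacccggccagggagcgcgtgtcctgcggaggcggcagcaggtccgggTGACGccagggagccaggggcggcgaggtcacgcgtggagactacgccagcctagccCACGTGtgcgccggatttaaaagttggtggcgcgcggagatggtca
The TGACG half-site began 63 bases before the start of Gal, 171 before Nts, 206 before Tac1 and 103 before Nmu. Nts and Nmu also held TGAGTCA, at 212 and 160 bases, and Tac1 and Nmu held CACGTG, at 72 and 46 bases. Grp held TGACG at 86 bases and the window of Galr1 held none of the 3 motifs. Of 33469 promoter windows of the same length in the RefSeq table, 18.2% held TGACG, 4.05% TGAGTCA and 5.59% CACGTG. A match is a description of these letters. Tac3 and Cck have no window here.

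Levels are given as log2 of the processed intensity relative to the 75th percentile of the array's probes, so that 0 is that percentile and a step of 1 is a doubling of signal. A level is compared between rats and never between genes, since probes differ in brightness. That percentile lay between an intensity of 423 and 528, the share of probes well above background ran from 63.6% to 77.8%, and the number of arrays limits the precision. Taken over spots the 75th percentile was higher (intensity 1963 to 2422), so levels against it would be lower and fewer markers would lie above 0. The arrays lay on 5 slides, and slide was tied to group. Slide 1 held control 3 to 6, slide 2 control 1 and 2, slide 3 stress 1 to 4, slide 4 stress 5 and 6 with exercise rats 1 and 2, and slide 5 exercise rats 3 to 6. Slides 1 to 3 and slides 4 and 5 are called the 2 slide sets. Of 16 hypothalamic markers, 15 were tested, and 11 of them lay above 0 in every rat. Among these Pmch, the precursor of melanin-concentrating hormone, lay between 8.14 and 8.46, Avp, the vasopressin precursor, between 6.75 and 7.28, and Hcrt, the orexin precursor, between 2.54 and 3.11. The transcription factor genes Sim1, Hmx2, Hmx3 and Rax lay below 0 in every rat, from -6.06 to -1.46, and Otp was not tested. In a piece of tissue, fewer cells of a type and less RNA per cell cannot be told apart.

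None of the 8 genes passed the test in any of the 3 comparisons. The test was limma over 31299 probes with Benjamini-Hochberg adjustment at 0.05, two-sided. Between stress and control 0% of all tested probes passed, so 0 of 8 is the count of the background, and 3755 probes (12.0%) had an unadjusted p under 0.05, of which 1 was a member (Gal). Between stress with exercise and stress 0 of 8 passed, against 3.73% of all tested probes. Between stress with exercise and control 0 of 8 passed, against 27.2%. These shares depended on the slides and the rats. In the fit with slide set they were 0.00319%, 0.0160% and 0.0128%, and without 1 rat the count for exercise minus stress ran from 1 to 4628 probes around the 1169 called. In the last 2 comparisons no member had an unadjusted p under 0.05, where 24.5% and 38.4% of probes did. The median difference of the 8 genes was 0.056 for stress minus control, -0.034 for exercise minus stress and 0.030 for exercise minus control, where the medians of all 13055 named genes tested were 0.017, 0.035 and 0.051. The comparisons share groups, so they are not independent of each other. Nothing in the labels ties the rats to separate litters or cages, so the spread is that between these 18 animals.

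**Figure D1:**
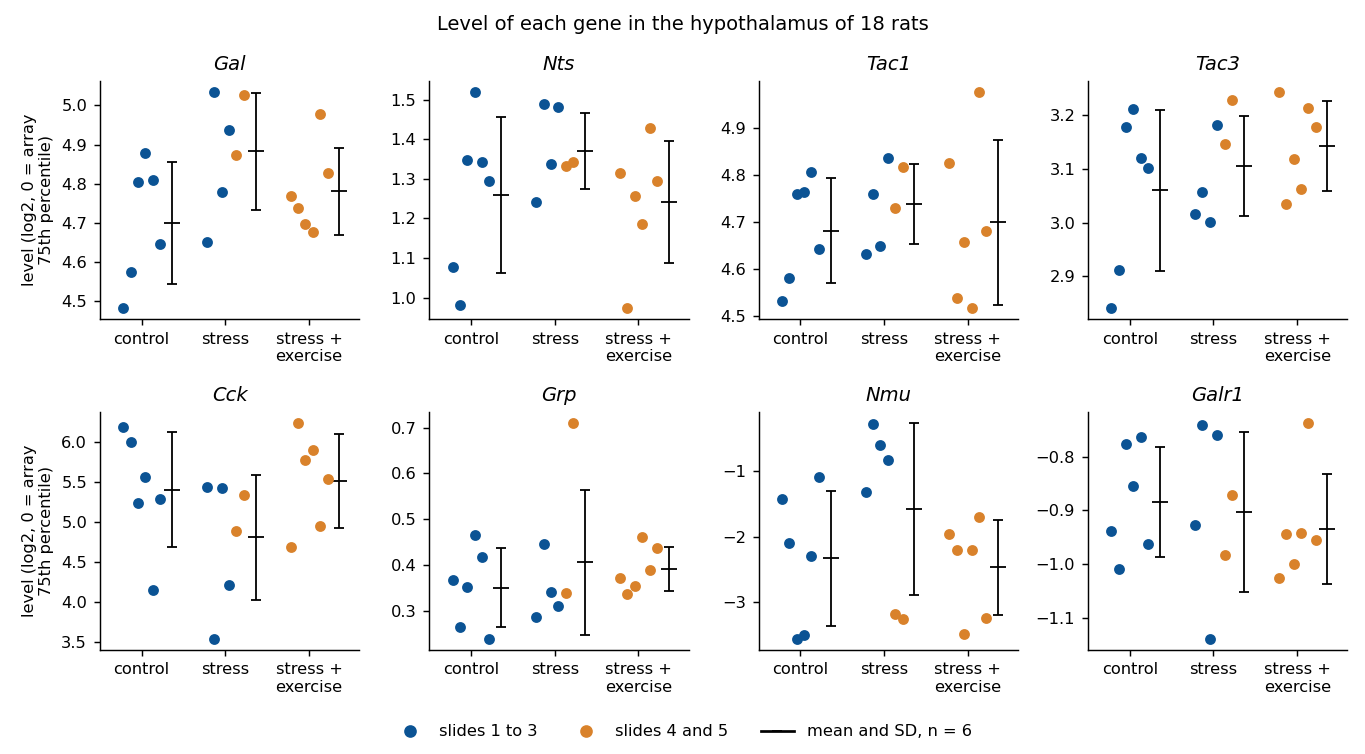
Level of each of the 8 genes (log2, 0 is the array's 75th percentile) in every rat by group, with points coloured by slide set and the mean with SD (n = 6) beside each group. The groups overlap in every panel, and the ranges of Cck (3.54 to 6.24) and Nmu (-3.56 to -0.29) are far wider than those of the other 6 genes.

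Galanin inhibits many of its target neurons and stimulates feeding. Gal lay at 4.48, 4.57, 4.81, 4.88, 4.81 and 4.65 in control rats 1 to 6, and at 4.65, 5.03, 4.78, 4.94, 4.87 and 5.03 in stress rats 1 to 6. In exercised rats 1 to 6 it lay at 4.77, 4.74, 4.70, 4.68, 4.98 and 4.83. The lowest pair were control 1 and 2, the only rats of slide 2, and the ranges of the 3 groups overlapped. The means were 4.70 ± 0.16 in control, 4.88 ± 0.15 in stress and 4.78 ± 0.11 with exercise (SD, n = 6 each). Stress minus control was 0.18 (SE 0.08, 95% interval 0.016 to 0.35), with an unadjusted p of 0.0341 and an adjusted p of 0.394 by limma over all probes, and 5 of 6 stress rats lay above the control mean. With slide set as a covariate the difference was 0.15 (interval -0.038 to 0.34). Exercise minus stress was -0.10 (interval -0.27 to 0.066) and exercise minus control 0.081 (interval -0.087 to 0.25).

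Neurotensin is a peptide of the lateral hypothalamus and preoptic area that lowers feeding and body temperature. Nts lay between 0.98 and 1.52 in control with a median of 1.32, between 1.24 and 1.49 in stress with a median of 1.34, and between 0.97 and 1.43 with exercise, with a median of 1.27. The stress rats lay inside the control range, and the lowest values were those of exercise rat 2 (0.97), control 2 (0.98) and control 1 (1.08). Stress minus control was 0.11 (SE 0.09, interval -0.073 to 0.30, adjusted p = 0.622 by limma), exercise minus stress -0.13 (interval -0.31 to 0.055) and exercise minus control -0.018 (interval -0.20 to 0.17).

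Tac1 encodes substance P and neurokinin A. It lay between 4.53 and 4.81 in control with a median of 4.70, between 4.63 and 4.84 in stress with a median of 4.74, and between 4.52 and 4.98 with exercise, with a median of 4.67. The exercised rats held both the lowest (rat 4) and the highest (rat 5) value of all 18. The differences were 0.056 (interval -0.10 to 0.21) for stress minus control, -0.038 (interval -0.19 to 0.12) for exercise minus stress and 0.018 (interval -0.14 to 0.18) for exercise minus control, with adjusted p of 0.791, 0.792 and 0.886 by limma.

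Tac3 encodes neurokinin B. It lay between 2.84 and 3.21 in control with a median of 3.11, between 3.00 and 3.23 in stress with a median of 3.10, and between 3.03 and 3.24 with exercise, with a median of 3.15. Control 1 (2.84) and control 2 (2.91) lay below every other rat, and the remaining 16 rats lay between 3.00 and 3.24. Exercise minus control was 0.082 (SE 0.07, interval -0.057 to 0.22, adjusted p = 0.388 by limma). Among the arrays of the second scan day alone it was 0.27 (adjusted p = 0.0245), a contrast of exercise rats 3 to 6 on slide 5 with control 1 and 2 on slide 2. Among those of the first day it was -0.013. In the main fit 27.2% of all tested probes passed in exercise minus control, and the share within the second scan day is not given here. Stress minus control was 0.045 (interval -0.094 to 0.18) and exercise minus stress 0.037 (interval -0.10 to 0.18).

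Cck, the cholecystokinin precursor, varied widely from rat to rat within each group. It lay at 6.19, 5.99, 5.23, 5.56, 4.15 and 5.28 in control rats 1 to 6, at 5.43, 3.54, 5.43, 4.22, 4.89 and 5.33 in stress rats 1 to 6, and at 4.68, 6.24, 5.77, 5.89, 4.95 and 5.53 in exercised rats 1 to 6. Stress 2, control 5 and stress 4 were the lowest and exercise 2 and control 1 the highest, and the 3 ranges overlapped. The highest rat had 6.47-fold the signal of the lowest, and the SD over the 18 arrays, 0.73, was at percentile 98.2 of 13055 genes. The means were 5.40 ± 0.72 in control, 4.81 ± 0.77 in stress and 5.51 ± 0.59 with exercise (SD, n = 6 each). Stress minus control was -0.59 (SE 0.38, interval -1.40 to 0.21, adjusted p = 0.536 by limma). Exercise minus stress was 0.70 (SE 0.38, interval -0.10 to 1.51, adjusted p = 0.269). Of the 6 exercised rats, 5 exceeded the mean of the stress rats. Exercise minus control was 0.11 (interval -0.70 to 0.92). The first 2 intervals reach past 1 log2 unit, so they do not exclude a change of that size in Cck.

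Genes of the thalamus, which borders the hypothalamus, went up and down with Cck. The 3 genes whose levels followed Cck most closely, out of 12979 compared over 18 arrays on deviations from slide means, were Grm4, a metabotropic glutamate receptor, Vav3 and Rgs4, a regulator of G protein signalling, each with r = 0.98. All 8 of the 10 thalamus markers that were tested had a positive r with Cck: 0.97 for the kinase Prkcd, the transcription factor Lef1, the netrin Ntng1 and Plekhg1, 0.94 for the homeobox gene Gbx2, 0.89 for the vesicular glutamate transporter Slc17a6, 0.68 for the calcium channel Cacna1g and 0.67 for Rgs16. Without the 2 arrays farthest from the median of Cck, r with Prkcd was 0.97. The points share 1 hybridisation per rat, and the values are a description. Prkcd lay at 0.28 in stress 2, 0.63 in stress 4 and 0.95 in control 5, the 3 rats with the lowest Cck, and at 3.91 in exercise 2 and 3.59 in control 1, the 2 with the highest. The mean level of the 8 thalamus markers ran from -0.55 to 0.76 in control, from -0.85 to 0.33 in stress and from -0.32 to 0.87 with exercise. Tcf7l2 and Rora of that list were not tested. The part of thalamic RNA in the differences of Cck between groups was not tested.

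**Figure D2:**
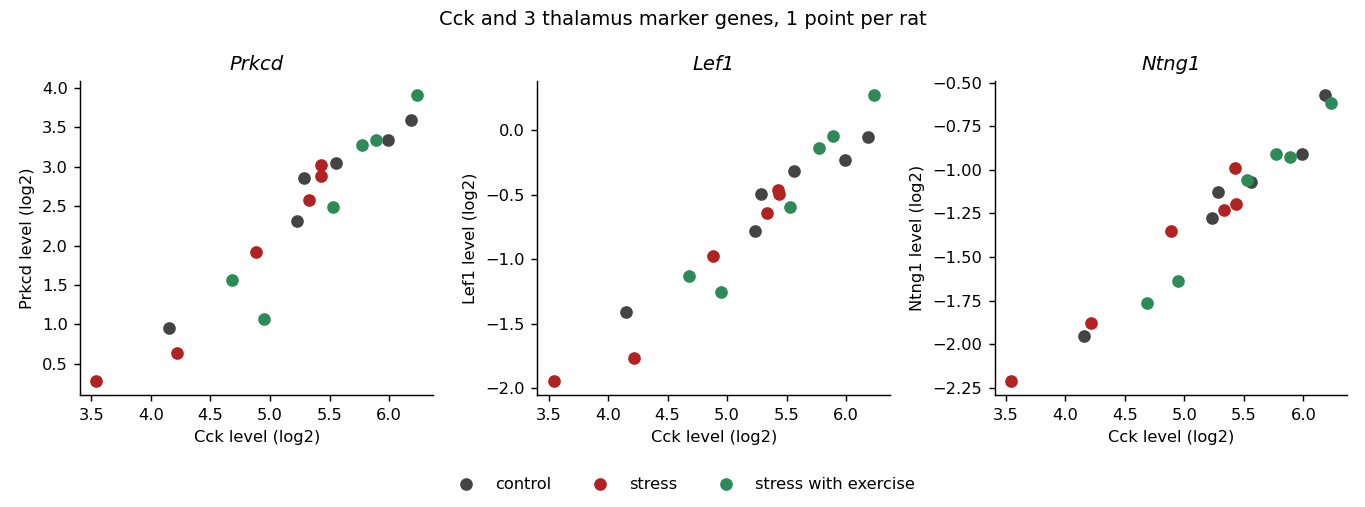
Level of the thalamus markers Prkcd, Lef1 and Ntng1 against that of Cck (both log2, 0 is the array's 75th percentile), 1 point per rat, coloured by group. Rats of all 3 groups lie along the same rising line in each panel, from stress 2 with Cck at 3.54 to exercise 2 at 6.24.

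Gastrin-releasing peptide acts on feeding and on the coupling of circadian clock cells. Grp lay between 0.24 and 0.47 in control with a median of 0.36, between 0.29 and 0.71 in stress with a median of 0.34, and between 0.34 and 0.46 with exercise, with a median of 0.38. Stress 6 (0.71) lay above every other rat, and the other 17 lay between 0.24 and 0.47. Stress minus control was 0.055 (interval -0.079 to 0.19, adjusted p = 0.751 by limma), exercise minus stress -0.014 (interval -0.15 to 0.12) and exercise minus control 0.041 (interval -0.092 to 0.17). Without stress 6 the first 2 differences were -0.0060 and 0.047. The genes that followed Grp most closely on deviations from slide means were Ak7 (r = 0.89), Ucn3 (0.88) and Slc35a3 (0.87). Ak7 encodes a kinase of adenylate found in motile cilia, and Ucn3 encodes urocortin III. Slc35a3 lay at 0.33 in stress 6, the rat with the highest Grp, and between -1.60 and -1.09 in the other 17. Without the 2 arrays farthest from the median of Grp the 3 values were 0.84, 0.77 and 0.70. On the levels themselves, over all 18 arrays, r with Grp was 0.50 for Ak7, 0.54 for Ucn3 and 0.87 for Slc35a3.

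Nmu had the widest range of the 8 genes, and its levels fell into 2 clusters that cut across the groups. It lay at -1.43, -2.10, -3.56, -3.50, -2.29 and -1.09 in control rats 1 to 6, at -1.32, -0.29, -0.60, -0.82, -3.18 and -3.25 in stress rats 1 to 6, and at -1.96, -2.21, -3.48, -2.21, -1.70 and -3.24 in exercised rats 1 to 6. Control 3 and 4, stress 5 and 6 and exercise 3 and 6 lay between -3.56 and -3.18, and the other 12 rats between -2.29 and -0.29. Each group held 2 of the 6 low rats, and the ranges of the groups overlapped. The probe was well above background on all 18 arrays. The highest rat had 9.68-fold the signal of the lowest, and the SD over 18 arrays, 1.06, was at percentile 99.6 of 13055 genes.

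Some pituitary genes split the rats as Nmu did and others did not. Cga, the shared alpha subunit of thyrotropin and the gonadotropins, followed Nmu more closely than any other of 12979 genes, and it lay between -6.52 and -1.80 in the 6 low rats and between 2.76 and 5.48 in the other 12. Tshb, the beta subunit of thyrotropin, was well above background in exactly those 12 rats (4 of 6 in each group), where it lay between -1.05 and 3.82, and in none of the 6, so it was below the filter for testing. One probe of Pitx1, a transcription factor of the pituitary, was well above background in the same 12 rats (-3.04 to -0.56) and in none of the 6. A brighter probe of Pitx1 was well above background in all 18 and did not split them, with ranges of -0.36 to 0.59 and -0.41 to 0.26. This probe differed by slide set, from 0.20 to 0.59 on slides 1 to 3 and from -0.41 to 0.0084 on slides 4 and 5. Lhb, Fshb and Pou1f1, which encode the beta subunits of luteinizing and follicle-stimulating hormone and a pituitary transcription factor, overlapped between the 6 and the 12 rats. Lhb lay at -1.46 to -1.27 and -1.47 to -0.79, Fshb at -6.34 to -4.93 and -5.84 to -4.87, and Pou1f1 at -4.17 to -3.01 and -4.61 to -3.02. Their r with Nmu on deviations from slide means was 0.08, -0.29 and -0.38, beside 0.89 for Cga and 0.65 for the brighter probe of Pitx1. Prl, the prolactin gene, was well above background on 0 arrays and Gh1, the growth hormone gene, on 2. On the levels themselves, r over the 12 rats alone was 0.97 between Nmu and Cga and 0.96 between Nmu and Tshb. Over the 6 rats these values were -0.50 and -0.40. For the brighter probe of Pitx1 r with Nmu was 0.67 over the 12 and -0.89 over the 6. For the probe of Pitx1 that split the rats it was 0.95 and -0.57. These genes were chosen after the values of Nmu had been seen, and the correlations are a description.

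Other genes split the same rats. Ccn3, a secreted matricellular protein, lay between -2.43 and -2.05 in the 6 rats and between -1.58 and -0.75 in the other 12, and Fndc3c1 lay between -3.58 and -3.05 and between -2.85 and -2.14. Spx encodes spexin, a peptide related to galanin that acts on galanin receptors. It was well above background in 3 of the 6 rats, at -5.01 to -8.14 over all 6, and in all of the other 12, at -4.33 to -2.78. Within the 12 rats Spx did not follow Nmu (r = -0.27). One probe of Dpp4, a peptidase that trims peptides such as neuropeptide Y, was well above background in the 12 rats and in none of the 6, and its other probe in none of the 18. The mean level of the 5 tested pituitary markers out of 9 ran from -3.05 to -0.91 in control, from -3.31 to -0.69 in stress and from -3.21 to -1.43 with exercise.

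**Figure D3:**
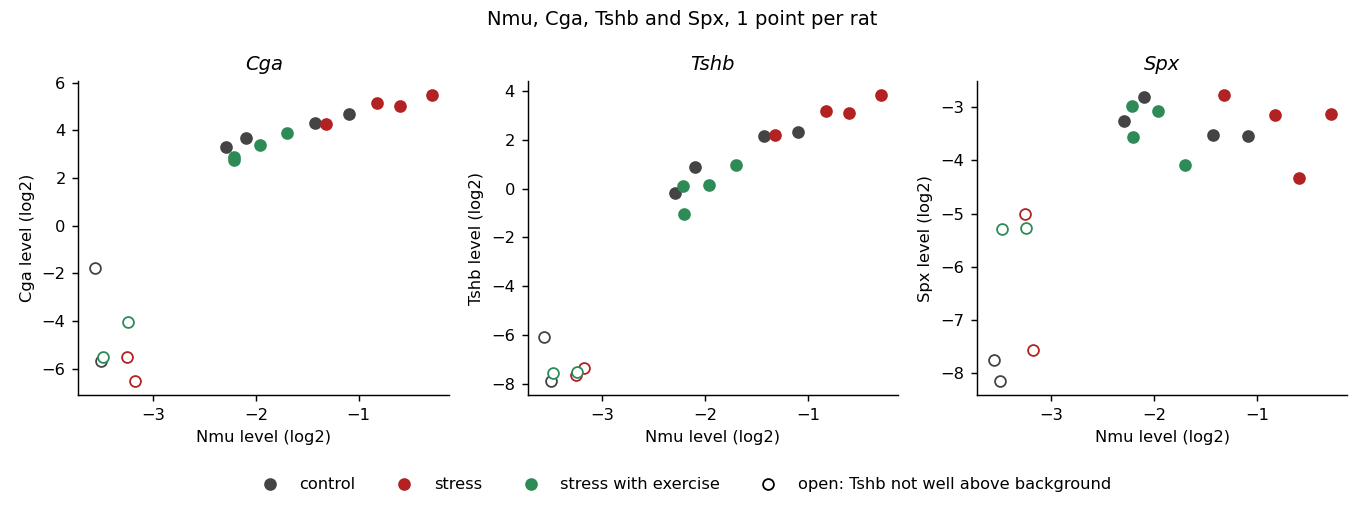
Level of Cga, Tshb and Spx against that of Nmu (log2, 0 is the array's 75th percentile), 1 point per rat, coloured by group, with open points for the 6 rats in which Tshb was not well above background. The 6 open points, 2 from each group, lie at the lower left of each panel, and the other 12 rise together for Cga and Tshb and not for Spx.

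No difference of Nmu between groups passed the test, and their signs depended on the slides compared. Stress minus control was 0.75 (SE 0.57, interval -0.46 to 1.96, adjusted p = 0.608 by limma), exercise minus stress -0.89 (SE 0.57, interval -2.10 to 0.32, adjusted p = 0.354) and exercise minus control -0.14 (interval -1.35 to 1.07, adjusted p = 0.889). With slide set as a covariate they became 1.57 (interval 0.57 to 2.58, adjusted p = 0.308), 0.75 (interval -0.53 to 2.02, adjusted p = 0.903) and 2.32 (interval 0.70 to 3.94, adjusted p = 0.378), so the sign of the last 2 turned. Slide 3 (stress 1 to 4) held none of the 6 low rats, and slide 4 held low rats for stress only. Among the arrays of the second scan day exercise minus stress was -1.90 (adjusted p = 0.0111), a contrast of slide 5, where 2 of 4 rats were low, with slide 3, where 0 of 4 were. Among those of the first day it was 1.13 (adjusted p = 0.583). Of all tested probes 24.9% passed in that comparison within the second day. The part of pituitary RNA in these differences was not tested.

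Galr1 encodes an inhibitory receptor for galanin. It lay between -1.01 and -0.76 in control with a median of -0.90, between -1.14 and -0.74 in stress with a median of -0.90, and between -1.03 and -0.74 with exercise, with a median of -0.95. The groups overlapped, and exercise rat 5 (-0.74) lay above the other exercised rats, which were within -1.03 to -0.94. The differences were -0.019 (interval -0.17 to 0.13) for stress minus control, -0.031 (interval -0.18 to 0.12) for exercise minus stress and -0.050 (interval -0.20 to 0.096) for exercise minus control, with adjusted p of 0.936, 0.822 and 0.637 by limma. A change of more than 0.20 downward or 0.13 upward lies outside all 3 intervals of this fit. The intervals were wider with slide set as a covariate, and that of exercise minus control ran from -0.28 to 0.25.

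**Figure D4:**
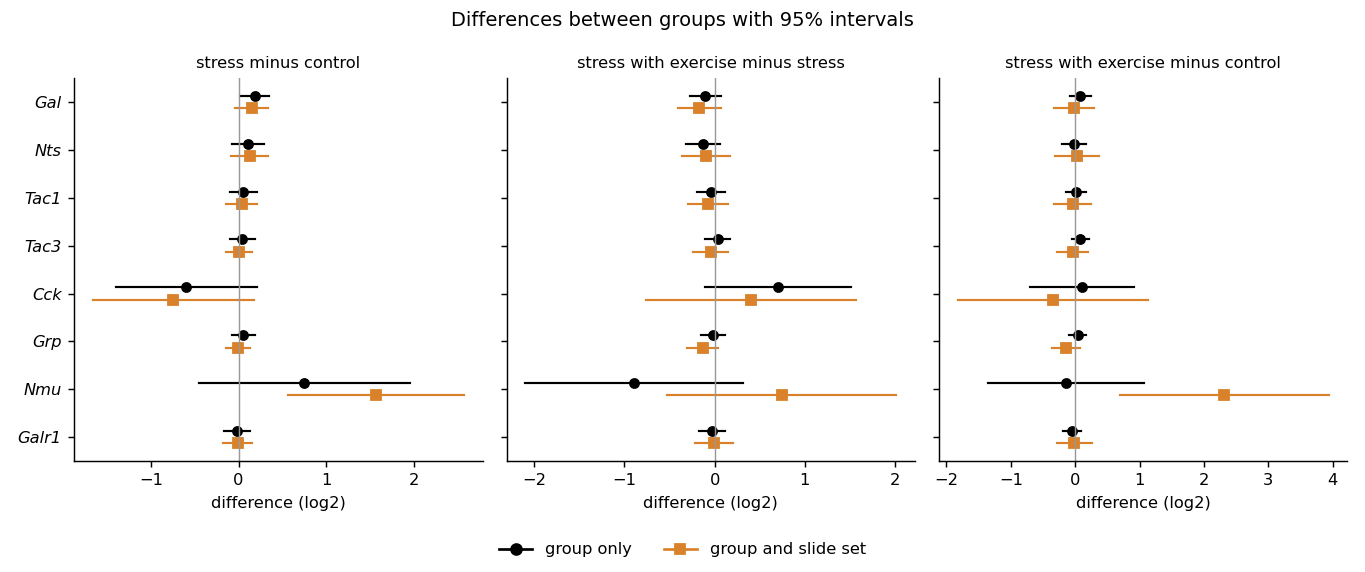
Difference between groups for each gene (log2) with its 95% interval in the 3 comparisons, from the fit with group only (black circles) and with slide set added (orange squares). All intervals for Cck, Tac1, Tac3, Nts, Grp and Galr1 include 0, the black one of Gal in stress minus control (0.016 to 0.35) and the orange ones of Nmu in 2 panels do not, and none passed adjustment over all probes.

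Across rats, Gal, Nts, Tac1 and Tac3 moved together and Cck moved against them. On deviations from slide means over 18 arrays, r was between 0.65 (Gal with Tac3) and 0.83 (Tac1 with Tac3) for the 6 pairs of those 4 genes. Cck had r of -0.61 with Gal, -0.62 with Nts, -0.70 with Tac1, -0.50 with Tac3 and -0.58 with Galr1. Galr1 had r of 0.69 with Gal, and Nmu had values between -0.27 and 0.02 with the other 7. Control 1 and 2 and exercise 2, with Cck at 5.99 or more, held the 3 lowest values of Nts, and stress 2, with the lowest Cck, held the highest Gal. Of 15 hypothalamic neuron markers tested, 14 had a positive r with Gal (median 0.78), 13 with Nts, 12 with Tac1 and 13 with Tac3, and 1 with Cck (median -0.45). Of the 8 thalamus markers, 0 had a positive r with Gal, Nts, Tac1 or Tac3. This was not particular to thalamus. Of 6 basal forebrain cholinergic markers, 0 had a positive r with Gal, Nts or Tac1, 2 with Tac3 and 6 with Cck. Their median r with Gal was -0.72, beside -0.57 for the thalamus markers. All 5 dopamine neuron markers had a positive r with each of Gal, Nts, Tac1 and Tac3, and 0 with Cck. How far the balance of tissue in the dissected piece set these pairs was not tested.

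**Figure D5:**
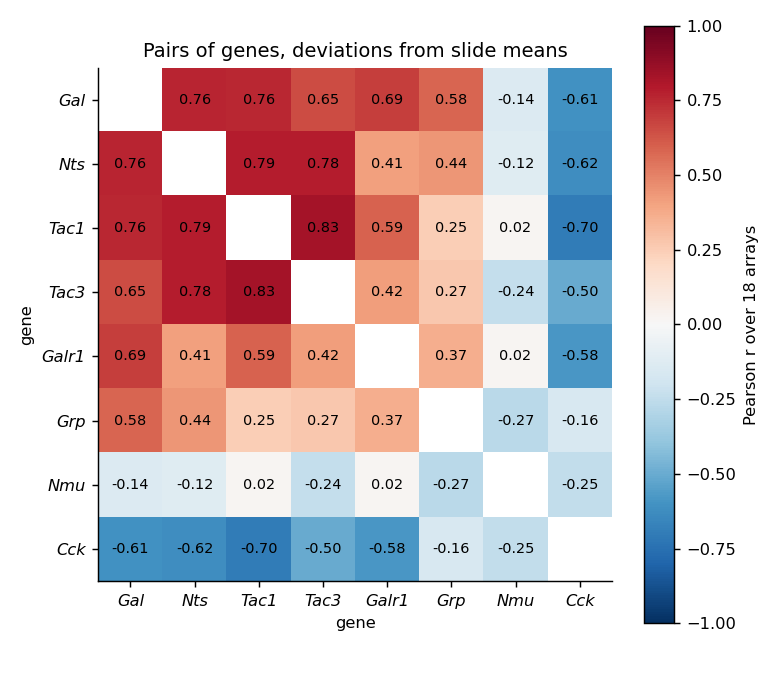
Pearson r for each pair of the 8 genes over 18 arrays, on deviations from the mean of the arrays of the same slide. Gal, Nts, Tac1 and Tac3 form a block between 0.65 and 0.83, and the row of Cck is negative with each other gene, from -0.16 with Grp to -0.70 with Tac1.

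The genes most like each of the other members were of mixed kinds. Gal was followed by Ngb, the neuroglobin gene (r = 0.95), Ropn1l (0.94) and Usp29 (0.93). Nts was followed by Adissp, a secreted signalling protein (0.92), the deubiquitinase Usp30 (0.86) and the ATP-gated channel P2rx2 (0.86), and Tac3 by Nopchap1 (0.91), Adissp (0.87) and Kbtbd11 (0.85). Tac1 was followed by Cartpt, the precursor of the satiety peptide CART (0.87), Ghr, the growth hormone receptor (0.86), and 6330403K07Rikl (0.84), and Galr1 by Mns1 (0.90), Enkd1 (0.89) and Prim2 (0.89). These values, on deviations from slide means, are the highest of 12979 for each gene and carry no test. Without the 2 arrays farthest from the member's median they were 0.74 to 0.93. On the levels themselves r for these pairs ran from 0.43 (Tac3 with Adissp) to 0.89 (Gal with Ngb).

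The receptors and the release machinery of these peptides were given by 53 further genes, of which 46 were tested. In stress minus control 0 of 46 passed, against 0% of the 13055 named genes, and in exercise minus stress 0 of 46, against 3.27%. In exercise minus control 4 were higher and 2 lower, against 28.0% of named genes in all, 18.1% higher and 9.84% lower, so the share was below the background in both directions. The median difference of the 46 was 0.066, beside 0.051 for all named genes. These counts take the brightest probe of each gene. In exercise minus control dimmer probes of Vgf (0.45, adjusted p = 0.00375), Sort1 (0.33, 0.00496) and Tpp2 (-0.18, 0.0234) passed by limma. The brightest probes of these genes gave 0.12, -0.012 and 0.099 and did not pass. No other dimmer probe that was tested for the 46 genes passed there. With slide set as a covariate 0 of the 46 passed in any comparison, beside 1, 5 and 4 of 31299 probes in the 3 comparisons as ordered here.

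Among the receptors, Galr2, which binds galanin and spexin, was higher by 0.23 (SE 0.07, adjusted p = 0.0174), Ntsr1, a neurotensin receptor, by 0.26 (SE 0.09, adjusted p = 0.0326) and Cckbr, the brain receptor of cholecystokinin, by 0.25 (SE 0.07, adjusted p = 0.00964) with exercise than in control, all by limma. A second, dimmer probe of Cckbr gave -0.16 (adjusted p = 0.142). Adding slide set as a covariate gave differences of 0.090 for Galr2, -0.060 for Ntsr1, whose sign turned, and 0.00012 for Cckbr. Without scaling between arrays none of these 3 receptors passed, with adjusted p from 0.146 to 0.181. The call of Ntsr1 also depended on single rats, with adjusted p from 0.0174 to 0.0724 by limma when 1 rat was left out. Markers of some other regions moved in the same comparison. Of the genes of basal forebrain cholinergic neurons 6 of 6 were higher with exercise than in control (median of the list 0.76). So were 6 of 10 striatum genes (median 0.39), beside 18.1% of named genes. For other regions, 0 of 8 thalamus (median -0.019), 0 of 5 dopamine neuron and 0 of 6 choroid plexus genes passed. In cortex and hippocampus 2 of 7 were higher, and in pituitary 2 of 5 were lower. The mean level of the cholinergic list ran from -0.69 to -0.35 in control, from -0.40 to 0.39 in stress and from -0.41 to 0.71 with exercise, and that of the striatum list from 0.42 to 0.59, 0.45 to 0.93 and 0.60 to 1.19. No gene of either list passed with slide set as a covariate. Their part in the differences of the receptors was not tested. Tacr1 and Tacr3, the receptors of substance P and neurokinin B, had differences of 0.10 (adjusted p = 0.194) and 0.11 (adjusted p = 0.455). Ntsr2 (0.10), Galr3 (-0.20), Cckar (-0.0026) and the neuromedin receptor Nmur2 (-0.17) did not pass either.

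Among the genes of peptide processing and storage, Pcsk1n, which encodes an inhibitor of the prohormone convertase PC1, was higher by 0.28 (SE 0.06, adjusted p = 0.00203) with exercise than in control. The convertase gene Furin was lower, at -0.21 (SE 0.05, adjusted p = 0.00734), and so was Scg3, a secretogranin of dense core vesicles, at -0.31 (SE 0.05, adjusted p = 0.000732). Under the slide-set covariate the differences were 0.058 for Pcsk1n, -0.24 for Furin and -0.15 for Scg3, none of which passed. With slide as a random block Pcsk1n and Scg3 passed, and Furin, Galr2, Ntsr1 and Cckbr did not (adjusted p of 0.0992 to 0.394). Stress 5 and 6 lay on a slide with exercised rats. They had Pcsk1n levels of 4.87 and 4.93. Stress 1 to 4 lay at 4.65 to 4.74 and the exercised rats at 4.85 to 5.06. For Ntsr1 those 2 rats lay at 0.09 and -0.04, the other stress rats from -0.45 to -0.15 and the exercised rats from -0.16 to 0.16. Cckbr lay at -0.08 and -0.15 in stress 5 and 6, from -0.42 to -0.26 in the other stress rats and from -0.35 to -0.12 with exercise. Galr2 lay at -0.10 and -0.08, from -0.34 to -0.15 and from -0.16 to 0.035 in the same order. Scg3 lay at 1.61 and 1.56, from 1.67 to 1.83 and from 1.46 to 1.62. Furin went otherwise, with 1.16 and 1.22 in stress 5 and 6, above all exercised rats (0.94 to 1.14) and within the range of the other stress rats (0.92 to 1.25). No slide held both control and exercised rats, and the exercised rats were also restrained. Restraint, running and slide therefore cannot be told apart in that comparison. Pcsk1, Pcsk2, Cpe and Pam, the enzymes that cut and amidate precursors, had differences of 0.19, 0.063, -0.080 and -0.033 and did not pass. The receptor genes Grpr, Nmbr, Brs3 and Nmur1, with Dpp4 and Esr1, were below the filter for testing, and Nms was not matched to a probe.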

How the data were processed

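RNA from the hypothalamus of 18 rats (3 groups of 6, by the labels) was hybridised to 1-colour Agilent arrays, 1 per rat. The deposited intensity is the processed signal of each spot, already corrected for background and spatial trend by Agilent Feature Extraction, per the file headers (version 12.1.0.3; 9.1 per the submitters' processing notes). The series' value table holds the same intensity times 1 constant per array. Control and outlier spots were dropped here, spots of a probe averaged as log2, and each array's 75th percentile over probes subtracted. A percentile over spots was tried as well. Probes well above background on at least 5 of 6 arrays of a group were tested (31299 of 45598). Of all probes 21220 were named, by transcript accession (RefSeq, GRCr8), and a gene with several probes is given by its brightest. Differences were tested with limma 3.58.1 (R 4.3.3), group only, on all 18 arrays, and the fit was tested on simulated data. Named were all 8 genes, further genes of their pathways that passed and, for likeness, the 3 most correlated genes of each. Members and lists were chosen with earlier results of these data known. Alternatives were the scaling, background, filter, slide set, slide, scan day, replicate number, the 2 groups alone, and leaving out each rat. No probe positions are given, because the array design (rn4) is on an older build. The amount of RNA, 100 or 200 ng, differs between the labels' extraction and labelling texts.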

Additional observations from a re-analysis of the deposited data

Results flagged for a closer look

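In a search for rats far from the others of their group, over 8 genes and 3 groups (24 tests), 1 value stood out: Galr1 in exercise rat 5 lay at -0.74, and the other 5 exercised rats lay between -1.03 and -0.94. The gap to its nearest neighbour was 0.71 of the group's range. Chance alone flags a rat in a small share (about 5%) of groups. The same rat had the highest Tac1 of all 18 (4.98).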

How the results depend on the processing

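For the 8 genes, 312 of 352 differences kept their sign and their side of the threshold in the settings that kept all rats or took subsets by slide or day, 38 changed sign and 2 passed (Nmu and Tac3 within the second scan day, given with Nmu and Tac3). None of the differences that changed sign had passed in the main analysis. With slide set as a covariate the new values were -0.0047 for Grp in stress minus control, -0.045 for Tac3 and 0.75 for Nmu in exercise minus stress, and -0.017 for Gal, 0.031 for Nts, -0.035 for Tac1, -0.041 for Tac3, -0.34 for Cck, -0.14 for Grp and 2.32 for Nmu in exercise minus control. Within slides 1 to 3 Grp was again -0.0047, and within slides 4 and 5 Tac3 and Nmu were again -0.045 and 0.75, since these slides alone carry those contrasts in that fit. With slide as a random block they were 0.00045 for Galr1 in stress minus control, -0.00047 for Tac3 in exercise minus stress, and 0.0026 for Nts, -0.074 for Cck and 0.22 for Nmu in exercise minus control. Within the first scan day they were -0.037 for Nts, 0.052 for Cck and -0.60 for Nmu in stress minus control, -0.048 for Tac3 and 1.13 for Nmu in exercise minus stress, and -0.032 for Gal, -0.061 for Tac1, -0.013 for Tac3, -0.013 for Grp and 0.53 for Nmu in exercise minus control. Within the second they were 0.082 for Galr1 in stress minus control, 0.064 for Grp in exercise minus stress, and 0.26 for Nts, -0.55 for Cck and 0.065 for Galr1 in exercise minus control. Without scaling they were -0.023 for Tac3 in exercise minus stress, and -0.037 for Tac1 and -0.014 for Grp in exercise minus control. In that last comparison the normexp background (on the median spot signal; the mean signal was not used here) gave -0.0023 for Grp, and the 75th percentile over spots, added after the data were seen, -0.00051 for Tac1. The causes were not tested.

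Leaving out 1 rat at a time kept 414 of 432 member differences and changed the sign of 18. The ranges of those concerned were -0.052 to 0.028 for Galr1 and -0.0060 to 0.079 for Grp in stress minus control, -0.078 to 0.0020 for Galr1 and -0.038 to 0.047 for Grp in exercise minus stress, and -0.037 to 0.055 for Tac1, -0.074 to 0.035 for Nts, -0.14 to 0.27 for Cck and -0.39 to 0.11 for Nmu in exercise minus control. The count of members that passed stayed at 0 (0 to 0) for all 3 comparisons. It was 1 within the second scan day for exercise minus stress, where 24.9% of all tested probes passed. For exercise minus control it was also 1 there. The share of all probes that passed that comparison within the second day is not given here, and in the main fit on all rats it was 27.2%.

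Counts over all 31299 probes were less stable. In stress minus control 0 passed in the main analysis, 2 with quantile scaling, 1 with slide set, 370 with scan day as a block and 3927 within the first day, and 0 to 1 without 1 rat. In exercise minus stress 1169 passed, against 3 with no filter on dim probes, 5 with slide set, 0 with slide as a random block, 3113 with scan day, 3 within slides 4 and 5, 0 within the first day, 7783 within the second, 0 with only the 2 groups, and 1 to 4628 without 1 rat. In exercise minus control 8509 passed, against 5170 without scaling, 4 with slide set, 1649 with slide as a random block, and 7397 to 8883 without 1 rat. Replicate numbers carry no pairing in the labels, and same-numbered rats correlated at -0.25 to 0.18. The replicate block left 2 probes in exercise minus stress and 0 members passing. For the 6 pathway genes that passed, 64 of 84 results in the settings other than leaving out a rat stayed past the threshold. In the rest 19 lost the call and 1 changed sign (Ntsr1, -0.060 with slide set). Leaving out 1 rat lost 7 of 108, all of them for Ntsr1 (adjusted p up to 0.0724 by limma). Each member has 1 probe, so the alternative with other probes had no value. A probe was tested only if well above background on 5 of 6 arrays of a group, so genes such as Tshb, dim in 6 rats, had no test.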
